A study of Mus musculus with 6 samples.

Results

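The genes described here are the core machinery of apoptosis, the regulated death of single cells. They are 32 genes chosen by symbol, among them BCL2 family members, caspases and inhibitors of apoptosis, and all 32 had a row among the 54429 rows of each library. Of these, 31 had enough counts to be tested, as did 24419 rows of the whole series, and Bik did not. The samples are bulk tissue of prefrontal cortex from mice 6 to 8 weeks old given an injection of AAV9, a serotype of adeno-associated virus which delivers genes to neurons. In 3 libraries the virus carried green fluorescent protein (GFP), and in the other 3 a short hairpin RNA (shRNA) against Kmt5b, a methyltransferase of histone H4 lysine 20. The control virus is thus labelled by GFP alone, and the promoters that drive hairpin and GFP are not given in the sources used here. The sample labels give C57BL6/J for both groups, while the design text gives a cross of C57BL/6 with C3H. That text counts 2 control mice and the extraction protocol speaks of duplicates, against 3 labelled libraries, so p-values measure only the spread between these libraries, which may in part be technical. The series title places DNA repair and gene transcription among the subjects of the study, and the comparison here asks which apoptosis transcripts differ between the groups.

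In the mitochondrial pathway of apoptosis, pore-forming BCL2 proteins open the outer mitochondrial membrane, pro-survival BCL2 proteins hold them in check, and BH3-only proteins relieve that check. Cytochrome c then leaves the mitochondrion and joins Apaf1 to form the apoptosome, which activates caspase 9, and the inhibitor of apoptosis proteins restrain caspases. The death receptor pathway instead activates caspase 8 through adaptors such as Fadd. In the brain these proteins set how many neurons survive development, and mature neurons are known for keeping much of the machinery at a low level.

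Total counts were 29490771 to 74723284 in the GFP and 48828638 to 57486203 in the Kmt5b shRNA libraries. Levels are given as CPM, the count of a gene on a common library size with TMM scaling, and a gene passed when its edgeR quasi-likelihood p, adjusted over all genes, was under 0.05. Kmt5b itself was at 86.5, 79.7 and 80.9 CPM in GFP replicates 1 to 3 and at 68.5, 80.3 and 63.9 CPM in Kmt5b shRNA replicates 1 to 3, and did not pass (log2 fold change -0.22 ± 0.10 SE, edgeR adjusted p = 0.303). One library labelled Kmt5b shRNA, replicate 2, lay within the GFP range, so the directions given here take the labels as they stand. Markers of cortical excitatory neurons were present in every library, with a summed level of 1282 to 1563 CPM in the GFP and 1386 to 1492 CPM in the Kmt5b shRNA libraries, while markers of striatal neurons summed to 138 to 143 and 111 to 146 CPM. Oligodendrocyte markers summed to 2880 to 4455 and 1593 to 3366 CPM, and astrocyte markers to 4908 to 5056 and 4211 to 4798 CPM. Of 8 markers in each list, 0 oligodendrocyte and 2 astrocyte markers passed, both lower, where 5.69% of all genes passed as lower. All 8 oligodendrocyte markers had a log2 fold change below 0, with a median of -0.41. Of the astrocyte markers, 7 were below 0 and 1 above, with a median of -0.17. Over all 24419 genes, 12875 were below 0. DESeq2 called 1 oligodendrocyte marker. Of 6 inhibitory neuron markers, 1 passed, Pvalb, as lower (log2 fold change -0.58, edgeR adjusted p = 0.00329). Of these 6, 2 had a log2 fold change above 0 and 4 below. With 3 libraries a group, a two-sided exact permutation p is at least 0.1.

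Of the 31 apoptosis genes tested, 5 passed. Cycs, Bok, Bnip3l and Hrk were higher and Bcl2 was lower in the libraries labelled Kmt5b shRNA. This is 16.1% of the genes, where 8.46% of all genes tested passed, 2.77% as higher and 5.69% as lower. The median log2 fold change of the 31 genes was -0.02, as was that of all 24419 genes. Within 0.2 of 0 lay 18 of the 31, and 12819 of all 24419. The CPM of the groups did not overlap for 9 of the 31 genes, or 29%, 5 of them higher and 4 lower, where 22.5% of all genes tested did not overlap, 9.84% higher and 12.7% lower. In bulk tissue, fewer cells of a type and less RNA per cell cannot be told apart.

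**Figure D1:**
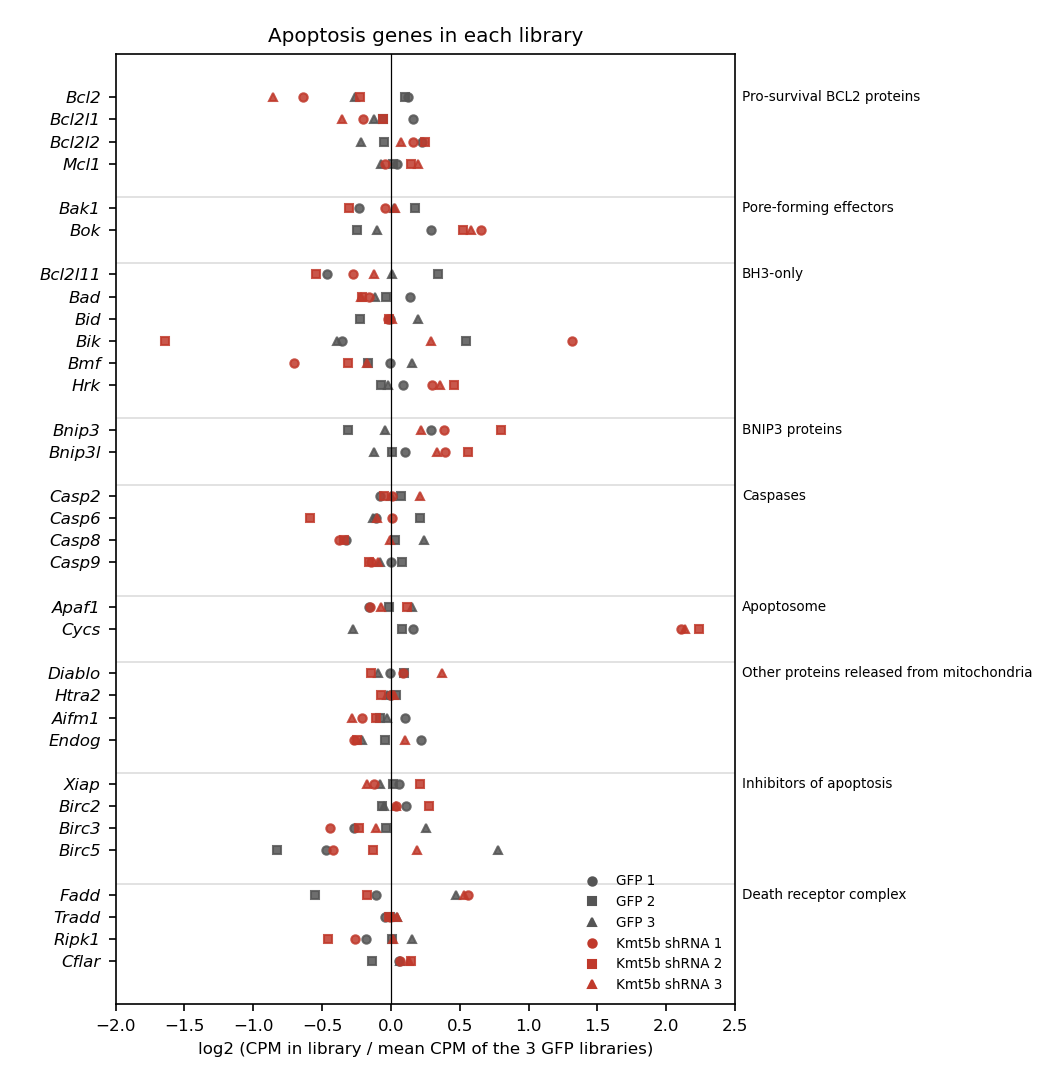
Level of each of the 32 apoptosis genes in each library, on the x axis as the log2 ratio of its CPM to the mean CPM of the 3 GFP libraries, with genes grouped by role on the y axis. Grey symbols are GFP and red symbols Kmt5b shRNA libraries. The 3 red symbols of Cycs, Bok, Hrk and Bnip3l lie to the right of all grey ones, while those of most other genes lie among them.

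Many transcripts in these data have intronless copies elsewhere in the genome, and counts at many of these copies differed between the groups. Of 1853 such copies tested, 53.9% were lower and 2.97% higher in the Kmt5b shRNA libraries, and of 1510 spliced genes that have copies, 20% were higher and 0.728% lower. The tests were therefore repeated with the counts of copies added to their parent gene, where 2.59% of 22601 genes passed, 1.24% as higher and 1.35% as lower. In that fit 2 of the 31 apoptosis genes passed, Cycs and Bok, both higher. Among protein-coding genes that share no sequence with others, 0.66% of 12114 passed, 0.421% as higher and 0.239% as lower. Of the 17 apoptosis genes in that set, 0 passed in edgeR and 4 had an unadjusted p under 0.05, as had 1776 of all 12114, and DESeq2 was not run on that set.

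**Figure D2:**
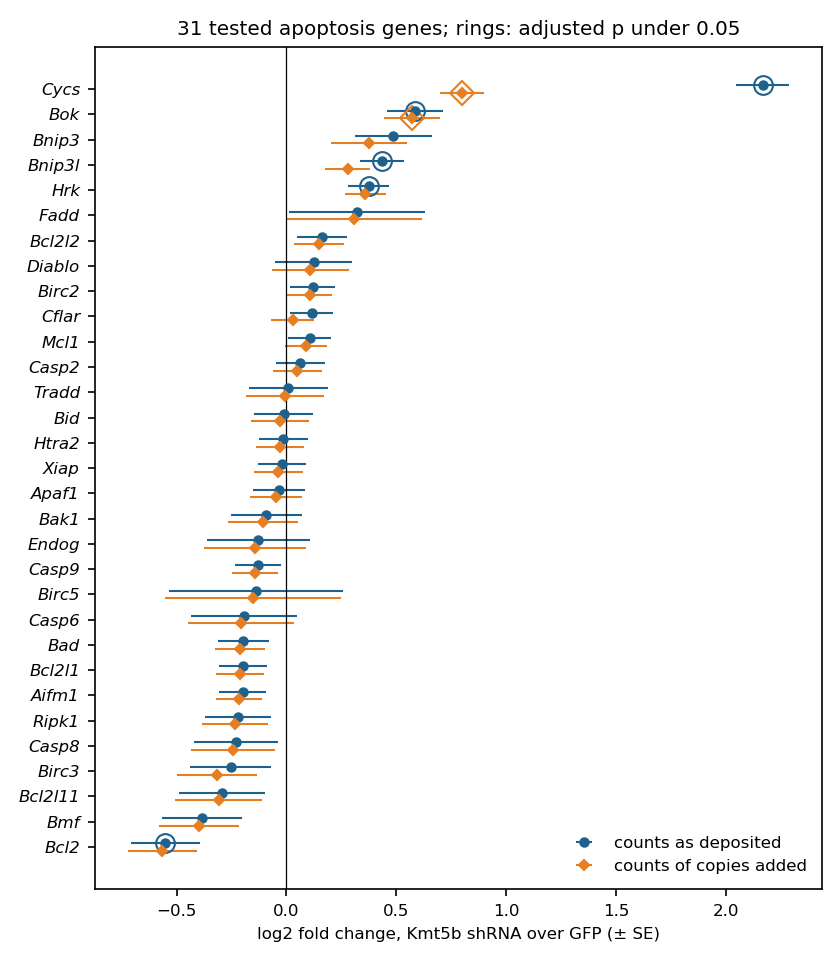
Log2 fold change of the 31 tested genes, Kmt5b shRNA over GFP, with SE as horizontal bars, from the counts as deposited (blue circles) and with the counts of intronless copies added (orange diamonds). Outer rings mark an edgeR adjusted p under 0.05. The 2 estimates differ most for Cycs, at 2.17 and 0.80.

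The apoptosome consists of cytochrome c and Apaf1. Cycs, on chromosome 6 from 50562563 to 50566538 (mm10, GENCODE M21), encodes cytochrome c, which carries electrons in the respiratory chain and triggers the caspase cascade once it is in the cytosol. It had 19.4, 18.3 and 14.4 CPM in the GFP and 74.9, 82.1 and 76.3 CPM in the Kmt5b shRNA libraries. Every Kmt5b shRNA library was thus far above every GFP library. The fold was 4.49 (95% interval 3.76 to 5.36), a log2 fold change of 2.17 ± 0.12 (SE) with an edgeR adjusted p of 2.62e-09 and a two-sided exact permutation p of 0.1. It passed with any 1 library left out, with an adjusted p of at most 1.58e-07.

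Cycs has 10 intronless copies with rows in the files, and their sequences show which counts can be told apart. The coding sequence of Cycs is 318 bases long, with an exon junction after base 169. Gm10053, annotated as a protein-coding gene without introns on chromosome 19 from 24875686 to 24876631, matches that coding sequence in 318 of 318 bases. Over its whole length of 946 bases it differs from the 3123-base Cycs transcript at 1 base. Gm10108, on chromosome 5 from 13121448 to 13121766, differs from the coding sequence by G4A and G44A, counted from the first base of the start codon, with the base of Cycs first. Gm19932, on chromosome 5 from 49423842 to 49424154, has 25 mismatches over the 316 coding bases that align. The first 200 coding bases and what aligns to them are from GENCODE M21, with bases that differ from Cycs in capitals. Bases of Cycs that Gm19932 lacks are not marked. They are shown because short reads from this stretch are nearly or fully alike for Cycs, Gm10053 and Gm10108. Those from Gm19932 differ at many bases. The Cycs transcript has 3123 bases, against 946 in Gm10053 and 319 in Gm10108. Most of it thus has no match in either of these copies.
Cycs (and Gm10053): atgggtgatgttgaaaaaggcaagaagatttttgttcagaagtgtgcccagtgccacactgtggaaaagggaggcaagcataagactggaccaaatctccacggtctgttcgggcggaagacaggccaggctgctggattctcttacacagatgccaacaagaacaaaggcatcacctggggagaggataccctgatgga
Gm10108: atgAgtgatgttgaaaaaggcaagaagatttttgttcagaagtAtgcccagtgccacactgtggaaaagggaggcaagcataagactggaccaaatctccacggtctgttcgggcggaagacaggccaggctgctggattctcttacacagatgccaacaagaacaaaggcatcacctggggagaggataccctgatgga
Gm19932: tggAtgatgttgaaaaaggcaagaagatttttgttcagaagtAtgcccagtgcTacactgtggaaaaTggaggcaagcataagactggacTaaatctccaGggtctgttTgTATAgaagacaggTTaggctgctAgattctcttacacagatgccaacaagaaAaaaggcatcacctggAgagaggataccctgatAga

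The copies nearest to Cycs in sequence were lower in the Kmt5b shRNA libraries, opposite to Cycs. Gm10053 was at 28.4, 25.7 and 22.3 CPM in the GFP and at 6.59, 7.04 and 6.18 CPM in the Kmt5b shRNA libraries (log2 fold change -1.95 ± 0.13 SE, edgeR adjusted p = 2.30e-08). Gm10108 was at 2.24, 1.40 and 1.58 CPM in the GFP and at 0.176, 0.0430 and 0.0729 CPM in the Kmt5b shRNA libraries (edgeR adjusted p = 1.06e-05). Both were lower in every Kmt5b shRNA library, as was Gm13772, which has 2 mismatches (log2 fold change -4.32, edgeR adjusted p = 1.22e-05). Gm11625, with an identity of 96.33%, had -1.90 ± 0.56 (SE, edgeR adjusted p = 0.0508). The groups overlapped for the 2 tested copies that are less alike. Gm13252, with an identity of 94.72%, had 0.71 ± 0.58 (SE, edgeR adjusted p = 0.636). Gm19932, at 91.14%, was at 2.72, 3.48 and 3.28 against 3.18, 1.64 and 3.45 CPM (edgeR adjusted p = 0.815). The other 4 copies were too low to test, among them Cycs-ps2 at 91.88%, which had 0 CPM in each Kmt5b shRNA library and at most 0.0651 CPM in a GFP library.

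**Figure D3:**
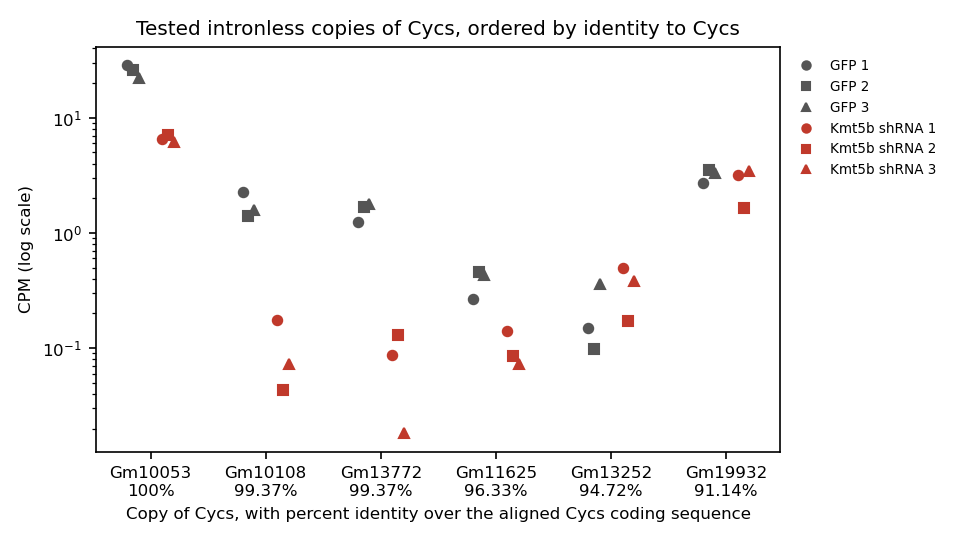
CPM (log scale) of the 6 tested intronless copies of Cycs in each library, ordered by percent identity to the aligned Cycs coding sequence. Grey symbols are GFP and red symbols Kmt5b shRNA libraries. The 4 copies above 96% identity are lower in every red library, and the groups overlap for the 2 below 95%.

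Cycs and its copies summed were still higher in the Kmt5b shRNA libraries. In the fit with copies added, the sum was 54.7, 51.5 and 44.5 CPM in the GFP and 85.2, 90.7 and 86.0 CPM in the Kmt5b shRNA libraries, so the groups did not overlap. The means were 50.3 ± 5.24 and 87.3 ± 3.0 CPM (SD, n = 3 each, two-sided exact permutation p = 0.1). The fold was 1.74, a log2 fold change of 0.80 ± 0.10 (SE) with an edgeR adjusted p of 0.000219, and at most 0.00251 with any 1 library left out. Of that sum, Cycs itself took 32.4% to 35.8% with GFP and 87.5%, 90.02% and 88.2% with Kmt5b shRNA. How reads that match both places were counted is not given in the sources used here. The protocol and the processing notes name different aligners without saying which libraries each served, so an assignment of reads that differed between the groups cannot be told apart from a change in the RNA. Apaf1, the scaffold of the apoptosome, was at 18.3, 20.2 and 22.8 CPM in the GFP and at 18.4, 22.1 and 19.4 CPM in the Kmt5b shRNA libraries. These ranges overlap, and the log2 fold change was -0.03 with an SE of 0.12 (edgeR adjusted p = 0.939).

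**Figure D4:**
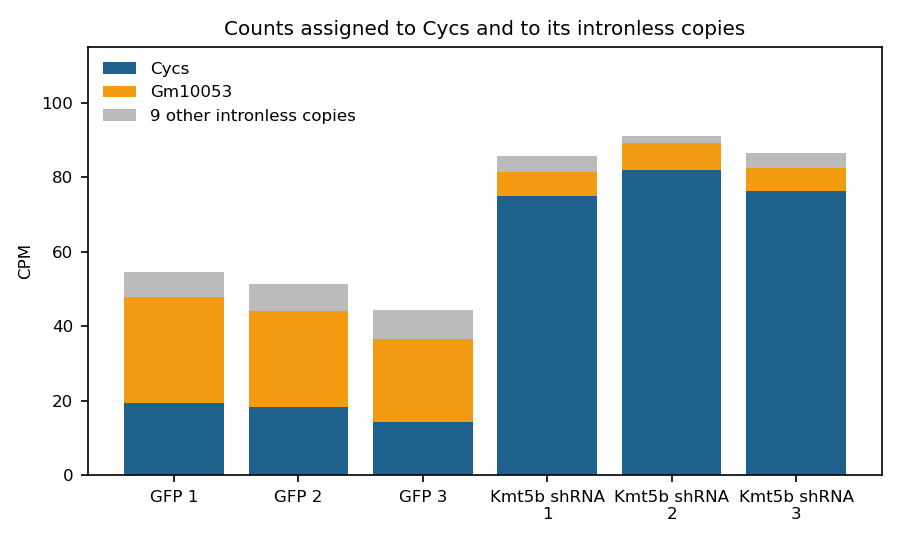
Stacked CPM of Cycs (blue), Gm10053 (orange) and the 9 other intronless copies (grey) in each library. The blue part is 14.4 to 19.4 CPM in the GFP and 74.9 to 82.1 CPM in the Kmt5b shRNA libraries, and the whole bar is also taller in each Kmt5b shRNA library.

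The pore-forming effectors were Bok and Bak1. Bok, a relative of Bak1 found largely at the endoplasmic reticulum, rose by 50% and was the gene of the BCL2 family with the smallest p. It was at 35.9, 24.7 and 27.3 CPM in the GFP and at 46.1, 42.1 and 43.8 CPM in the Kmt5b shRNA libraries. The lowest Kmt5b shRNA library was above the highest GFP library. The log2 fold change was 0.58 with an SE of 0.13 (edgeR adjusted p = 0.00639, two-sided exact permutation p = 0.1), a fold of 1.5 with a 95% interval of 1.24 to 1.81. Bok has no copy and shares no exon with another gene. It passed with each library left out in turn (adjusted p up to 0.0430) and with the copies of other genes added (0.57 ± 0.13, edgeR adjusted p = 0.0255). With copies added and 1 library left out it passed in 1 of 6 fits, and among genes sharing no sequence it did not pass (0.58, edgeR adjusted p = 0.0586). Bak1, which opens the outer mitochondrial membrane, was at 7.09, 9.40 and 8.45 CPM in the GFP and at 8.08, 6.74 and 8.49 CPM in the Kmt5b shRNA libraries. The groups overlap (log2 fold change -0.09 ± 0.16 SE, edgeR adjusted p = 0.861). Part of Bak1 lies opposite exons of Ggnbp1, and whether counting used the strand is not stated.

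Among the BH3-only genes, 1 of 5 tested passed, Hrk, where 8.46% of all genes tested passed. Hrk encodes harakiri, a BH3-only protein found mainly in neurons that binds pro-survival BCL2 proteins. It was at 67.2, 59.99 and 62.2 CPM in the GFP and at 77.8, 86.6 and 81.0 CPM in the Kmt5b shRNA libraries, without overlap. The log2 fold change was 0.37 with an SE of 0.09 (edgeR adjusted p = 0.0198, two-sided exact permutation p = 0.1), a fold of 1.30 with a 95% interval of 1.13 to 1.49. Leaving out GFP replicate 2 or 3 gave Hrk an edgeR adjusted p of 0.0637 or 0.0757, and leaving out Kmt5b shRNA replicate 1 or 2 gave 0.0534 or 0.0776. It was 0.0634 with copies added and 0.0623 among genes sharing no sequence. The summed level of the 6 BH3-only genes was 104 to 111 CPM in the GFP and 116 to 125 CPM in the Kmt5b shRNA libraries. Hrk made up the larger part of this sum in every library. Of the 5 tested BH3-only genes, Hrk alone had a log2 fold change above 0, and the other 4 lay below 0. Of 8 cortical excitatory neuron markers, 0 passed in edgeR or in DESeq2. At an unadjusted edgeR p under 0.05 there were 5, all higher, where 1759 of all 24419 genes were higher at such a p. Of the 8 markers, 6 had a log2 fold change above 0 and 2 below, with a median of 0.27. Their summed level overlapped between the groups. Their part in the Hrk result was not tested.

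None of the other BH3-only genes passed in edgeR. Bmf, which senses detachment from the cytoskeleton, was at 6.97, 6.21 and 7.76 CPM in the GFP and at 4.29, 5.64 and 6.18 CPM in the Kmt5b shRNA libraries. The groups do not overlap, by a narrow margin, and the log2 fold change was -0.38 with an SE of 0.18 (edgeR adjusted p = 0.300, two-sided exact permutation p = 0.1). Bad, Bcl2l11 (which encodes Bim) and Bid had log2 fold changes of -0.20, -0.29 and -0.01 and edgeR adjusted p from 0.440 to 0.982. Bik was close to absent, with 7, 6 and 8 counts in the GFP and 19, 2 and 9 counts in the Kmt5b shRNA libraries. Its counts were too few to test. Exons of Gpr137 cover 20.5% of the exon length of Bad and those of Bcl2l13 17.7% of Bid, on the opposite strand.

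Of the 4 pro-survival genes, Bcl2 passed as lower. Bcl2, the founding member of the family, which keeps the mitochondrial membrane closed, was at 35.1, 34.5 and 26.8 CPM in the GFP and at 20.6, 27.5 and 17.7 CPM in the Kmt5b shRNA libraries. The groups overlap, since Kmt5b shRNA replicate 2 lay just above GFP replicate 3. The log2 fold change was -0.55 with an SE of 0.16 (edgeR adjusted p = 0.0465, two-sided exact permutation p = 0.2), a fold of 0.683 with a 95% interval of 0.540 to 0.863. Leaving out GFP replicate 1 or 2 gave Bcl2 an edgeR adjusted p of 0.143 or 0.172, and leaving out Kmt5b shRNA replicate 1 or 3 gave 0.189 or 0.147. It was 0.00216 without Kmt5b shRNA replicate 2. It was also 0.0560 with RLE scaling, 0.0973 with copies added and 0.114 among genes sharing no sequence. Bcl2 is also abundant in lymphocytes. All 9 lymphocyte markers had a log2 fold change below 0, and 5 passed as lower, where 5.69% of all genes did. With copies added 4 of 9 passed as lower, and among genes sharing no sequence 1 of 8. Their summed level was 9.81, 12.5 and 23.9 CPM in the GFP against 3.64, 3.25 and 6.18 CPM in the Kmt5b shRNA libraries. Ms4a1, a marker of B cells, had 0 counts in Kmt5b shRNA replicate 2. The part of the lymphocyte markers in the Bcl2 result was not tested.

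The other pro-survival genes did not pass. Bcl2l1, which encodes Bcl-xL, was at 97.3, 83.5 and 79.8 CPM in the GFP and at 75.6, 83.7 and 68.1 CPM in the Kmt5b shRNA libraries. The groups overlap, and the log2 fold change was -0.20 with an SE of 0.11 (edgeR adjusted p = 0.403). Bcl2l2 and Mcl1, the genes for Bcl-w and the short-lived protein Mcl-1, had 0.16 ± 0.11 (edgeR adjusted p = 0.554) and 0.10 ± 0.10 (SE, edgeR adjusted p = 0.688). Per kilobase of exon, a scale on which genes can be compared, Bcl2l2 and Mcl1 had mean levels of 29.9 and 22.2 CPM in the GFP libraries, Bcl2l1 18.9 and Bcl2 3.51. Bcl2 was thus the lowest of the 4 pro-survival genes per length. Exons of Gm20521 on the same strand cover 13.3% of the exon length of Bcl2l2, whose level is uncertain for that reason. The summed level of the 4 genes overlapped between the groups, with 294 to 367 CPM in the GFP and 314 to 354 CPM in the Kmt5b shRNA libraries.

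**Figure D5:**
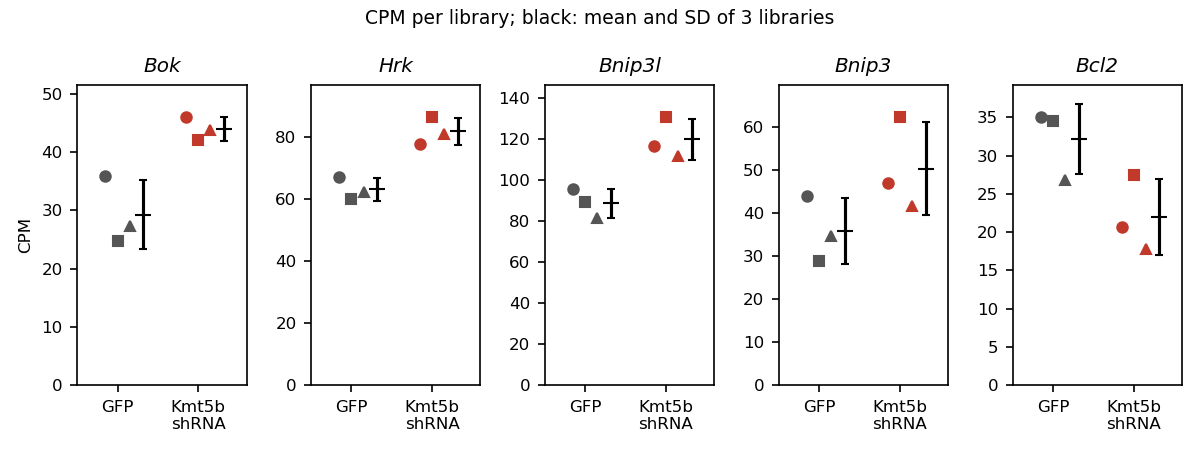
CPM of Bok, Hrk, Bnip3l, Bnip3 and Bcl2 in each library, GFP in grey and Kmt5b shRNA in red, with the mean and SD of each group of 3 in black. The groups do not overlap for Bok, Hrk and Bnip3l, and they overlap for Bnip3 and Bcl2.

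Bnip3 and Bnip3l encode BH3-like proteins of the outer mitochondrial membrane that mark mitochondria for removal by autophagy. Bnip3l was at 95.4, 89.2 and 81.3 CPM in the GFP and at 117, 131 and 112 CPM in the Kmt5b shRNA libraries, without overlap. Its log2 fold change was 0.43 with an SE of 0.10 (edgeR adjusted p = 0.0110, two-sided exact permutation p = 0.1). It did not pass when GFP replicate 3 (0.0703) or Kmt5b shRNA replicate 2 (0.0546) was dropped. Its copy Bnip3l-ps, on chromosome 12 from 18216542 to 18217673, matches the coding sequence at 99.39% and moved the other way, from 15.4, 13.6 and 11.7 to 5.36, 6.54 and 4.89 CPM (log2 fold change -1.28, edgeR adjusted p = 3.22e-05). With the copy added, Bnip3l had 0.28 ± 0.10 (SE) and did not pass (edgeR adjusted p = 0.235). The sums were 111, 103 and 93.6 CPM in the GFP and 121, 137 and 116 CPM in the Kmt5b shRNA libraries, still without overlap. Bnip3 was at 43.9, 28.8 and 34.8 CPM in the GFP and at 46.9, 62.4 and 41.7 CPM in the Kmt5b shRNA libraries. It did not pass (0.49 ± 0.17 SE, edgeR adjusted p = 0.150), and the groups overlap, with Kmt5b shRNA replicate 2 the highest. DESeq2 gave Bnip3 an adjusted p of 0.0428, and edgeR 0.0219 without GFP replicate 1. Its copy Gm6532 was lower (-2.51, edgeR adjusted p = 3.57e-05), and with copies added Bnip3 had 0.38 ± 0.17 (SE, edgeR adjusted p = 0.404). An antisense gene, Gm45507, covers 22.3% of its exon length.

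None of the 4 caspase genes passed in edgeR or DESeq2, and 0 had an unadjusted edgeR p under 0.05. Over all 24419 genes, 8.46% passed in edgeR, DESeq2 called 2299, and 4239 had such an unadjusted p. A list of 4 genes is too short to be told apart from these shares. Casp9, the caspase that the apoptosome activates, was at 19.0, 20.0 and 18.0 CPM in the GFP and at 17.1, 17.0 and 17.8 CPM in the Kmt5b shRNA libraries. The groups do not overlap, yet the log2 fold change was only -0.13 with an SE of 0.11 (edgeR adjusted p = 0.634), with a 95% interval of -0.36 to 0.10. Casp8, which starts the cascade below death receptors, was at 5.07, 6.51 and 7.50 CPM in the GFP and at 4.90, 5.01 and 6.34 CPM in the Kmt5b shRNA libraries. These ranges overlap (-0.23 ± 0.19 SE, edgeR adjusted p = 0.642). Casp2, an initiator linked to DNA damage, had 0.06 ± 0.11 (SE, edgeR adjusted p = 0.863) and the effector Casp6 -0.19 ± 0.24 (SE, edgeR adjusted p = 0.789). The summed level of the 4 genes was 44.1 to 49.2 CPM in the GFP and 41.8 to 48.1 CPM in the Kmt5b shRNA libraries. Per kilobase of exon, Casp9 was the highest in the GFP libraries at 3.65 CPM and Casp6 the lowest at 0.493 CPM.

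Of the other proteins released from mitochondria, 0 of 4 passed in edgeR or DESeq2, and 0 had an unadjusted p under 0.05. Here too, 4 genes are too few to be told apart from all genes, of which 8.46% passed in edgeR. Aifm1, which encodes apoptosis-inducing factor, a flavoprotein that also supports the respiratory chain, was at 24.1, 21.2 and 22.0 CPM in the GFP and at 19.4, 20.9 and 18.4 CPM in the Kmt5b shRNA libraries. The groups do not overlap, with a log2 fold change of -0.20 ± 0.11 (SE, edgeR adjusted p = 0.372, two-sided exact permutation p = 0.1). Diablo (Smac), which displaces inhibitors of apoptosis from caspases, was at 6.02, 6.47 and 5.68 CPM in the GFP and at 6.43, 5.49 and 7.84 CPM in the Kmt5b shRNA libraries. These ranges overlap (0.12 ± 0.18 SE, edgeR adjusted p = 0.815). The protease Htra2 had -0.01 ± 0.11 and the nuclease Endog -0.13 ± 0.23 (SE, edgeR adjusted p = 0.975 and 0.867). Exons of other genes on the opposite strand cover 35.7% of the exon length of Endog (Spout1) and 21.5% of Diablo (B3gnt4). On Htra2 they cover 25.6% (Aup1) and 18.2% (Loxl3). The values of these genes are thus uncertain where strand was not used. Exons of Gm49027 on the same strand cover 19.3% of Diablo, whose value is thus uncertain either way.

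The inhibitors of apoptosis did not pass either, with 0 of 4 in edgeR and in DESeq2 and 0 at an unadjusted p under 0.05. With 8.46% of all genes passing in edgeR, 0 of 4 does not set these genes apart. Birc3 and Birc2 encode the ubiquitin ligases cIAP2 and cIAP1. Birc3 was at 5.35, 6.31 and 7.71 CPM in the GFP and at 4.76, 5.51 and 6.00 CPM in the Kmt5b shRNA libraries (-0.25 ± 0.18 SE, edgeR adjusted p = 0.575). Birc2 was at 58.2, 51.5 and 51.9 CPM in the GFP and at 55.1, 65.2 and 55.4 CPM in the Kmt5b shRNA libraries (0.12 ± 0.10 SE, edgeR adjusted p = 0.652). Both overlap between the groups. Xiap, which blocks caspases directly, had a mean level per kilobase of 12.8 CPM in the GFP and 12.6 CPM in the Kmt5b shRNA libraries (-0.02 ± 0.11 SE, edgeR adjusted p = 0.963). Birc5 encodes the mitotic protein survivin. It was at 0.747, 0.586 and 1.78 CPM in the GFP and at 0.773, 0.947 and 1.18 CPM in the Kmt5b shRNA libraries. With so wide a spread between GFP libraries, its interval of -0.99 to 0.71 on the log2 scale leaves room for sizeable changes in either direction.

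In the death receptor complex 0 of 4 genes passed in edgeR or DESeq2, and 0 had an unadjusted p under 0.05. Since 8.46% of all genes passed in edgeR, 0 of 4 does not set this complex apart. Ripk1, a kinase that steers between survival, apoptosis and necroptosis, was at 10.001, 11.4 and 12.7 CPM in the GFP and at 9.47, 8.26 and 11.5 CPM in the Kmt5b shRNA libraries (-0.22 ± 0.15 SE, edgeR adjusted p = 0.541). Cflar (c-FLIP), the caspase 8 relative that holds it in check, was at 36.4, 31.8 and 36.5 CPM in the GFP and at 36.6, 38.7 and 38.3 CPM in the Kmt5b shRNA libraries. Its groups do not overlap, but by less than 0.1 CPM, and its log2 fold change was 0.12 with an SE of 0.10 (edgeR adjusted p = 0.652). A copy of part of Cflar, Gm9845, matches 597 of 597 aligned coding bases and had -3.97 ± 0.36 (SE, edgeR adjusted p = 1.02e-06), and with it added Cflar had 0.03 ± 0.10 (SE). The adaptors Tradd and Fadd had 0.01 ± 0.18 and 0.32 ± 0.31 (SE, edgeR adjusted p = 0.990 and 0.701).

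A further list of 55 related apoptosis genes outside these 32 had 54 rows in the files, and 52 were tested. Of these, 3 were higher and 0 lower in edgeR and in DESeq2, or 5.77% called where 8.46% of all genes passed. At an unadjusted p under 0.05 there were 5 higher and 3 lower, where 4239 of all 24419 genes had such a p. The median log2 fold change was -0.09. Pdcd5 and Vdac3, which have copies, were higher by 1.32 ± 0.12 and 0.91 ± 0.13 (SE, edgeR adjusted p = 1.22e-06 and 0.000103). With copies added they had 0.26 and 0.14 and did not pass (edgeR adjusted p = 0.243 and 0.726).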

How the data were processed

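Bulk RNA of 6 libraries was compared, 3 GFP and 3 Kmt5b shRNA, grouped by the sample titles. Per the labels' protocols, libraries were stranded and depleted of ribosomal RNA, while Cutadapt trimmed the reads, and TopHat2 placed them on RefSeq mRNAs. The submitters' processing notes name STAR, featureCounts, DESeq2 and mm10. The deposited values are raw counts per gene symbol. Strand, pair and multiple-mapping settings are not given in the sources used here. Counts were filtered by filterByExpr, scaled by TMM and tested with edgeR 4.0.16 in R 4.3.3 by the robust quasi-likelihood fit, with Benjamini-Hochberg adjustment over 24419 genes and a threshold of 0.05. SE is the absolute log2 fold change over the square root of F, and intervals have 95% confidence. DESeq2 1.42.0 and the other alternatives are given at the end. The fit was tested on simulated counts.

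Intronless copies were found with BLAST+ 2.17.0 on GENCODE M21 transcripts, at 90% identity over at least 100 bases and 50% of the copy. Genes sharing no sequence had no match of 200 bases, or of 50% of their length, to a protein-coding gene or pseudogene. Level per kilobase is CPM over merged exon length. The genes, their roles and the related list were chosen with earlier results of these data known. Values in every library are given for called genes, the 2 of smallest p per role, and genes under 1 CPM or untested. Of the related list, called genes are named, except for 1 that is not reported here. Tables of protein sequence were not used here.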

Additional observations from a re-analysis of the deposited data

How the results depend on the processing

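The counts of called apoptosis genes, 4 higher and 1 lower, depended on the setting. Leaving out 1 library gave 2 to 5 higher and 0 to 1 lower, with 2 higher without GFP replicate 3 or without Kmt5b shRNA replicate 2. The lower call, Bcl2, was lost without GFP replicates 1 or 2 and without Kmt5b shRNA replicates 1 or 3. With copies added there were 2 higher and 0 lower, and among genes sharing no sequence, where 17 were tested, 0 and 0. RLE scaling and the fit of protein-coding genes gave 0 lower. The related list had 0 higher with copies added and among genes sharing no sequence, and 1 lower with no filter. Leaving out 1 library gave it 0 to 1 lower, the 1 without GFP replicate 1. Over all genes, 676 higher and 1390 lower became 280 and 306 with copies added and 51 and 29 among genes sharing no sequence, and protein-coding genes alone had 184 lower. For fits of fewer genes, the adjustment itself is also different, and otherwise the cause was not tested.

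Genes near 0 changed sign without passing. Tradd had -0.0097 with upper-quartile scaling and -0.0063 with copies added and in protein-coding genes. With a library left out, the log2 fold change ran from -0.19 to 0.0063 for Bak1, -0.10 to 0.099 for Bid, -0.0090 to 0.12 for Casp2, -0.11 to 0.054 for Apaf1, -0.010 to 0.24 for Diablo, -0.030 to 0.014 for Htra2, -0.25 to 0.0036 for Endog, -0.15 to 0.062 for Xiap, -0.38 to 0.52 for Birc5 and -0.0092 to 0.032 for Tradd. Bnip3 passed with DESeq2, with no filter (edgeR adjusted p = 0.000257) and without GFP replicate 1. With the replicate number as a block (replicate block), 4 apoptosis genes were higher and 1 lower. Same-numbered libraries correlated at -0.03, -0.01 and 0.22 in their deviations from the group means, and not every library correlated best with its own number. Leaving out libraries in the fit with copies added was chosen after seeing the data.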
